A study of Mus musculus with 47 samples.

Results

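The melanocyte lineage and pigment genes are 10 genes chosen by name from the 56748 genes of a table of raw read counts: Mitf, Sox10, Pmel, Mlana, Tyr, Tyrp1, Dct, Slc45a2, Gpr143 and Mlph. All 10 were matched by gene identifier through the GENCODE annotation of GRCm39, the genome build of the counts. RNA came from B78-D14, a mouse melanoma line derived from B16 that lacks Cdkn2a and is called amelanotic, that is, without visible pigment. The edited lines carry a G>A change that truncates the mitochondrial gene Mt-Nd5, made with a mitochondrial base editor in transfected and sorted cell populations, and the percentage in a group's name is the share of mitochondrial DNA copies with the change. Cultured cells were wild-type control cells (4 cultures) and m.11,944 60% cells (4 cultures). Tumors were untreated fragments of subcutaneous growths in young adult male C57BL/6 mice from wild-type control cells (4 tumors, 001 to 004), m.12,436 40% cells (7 tumors) and m.12,436 60% cells (7 tumors), so the edited cultures and the edited tumors carry different mutations. All groups share the Cdkn2a loss of the line. A tumor fragment also holds host cells. In these bulk counts fewer cells of a type and less RNA per cell cannot be told apart, nor can reads of tumor cells and of host cells.

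In melanocytes the transcription factors Sox10 and Mitf drive the pigment program. Mitf binds short E-box sequences near the starts of pigment genes. The melanosome, the organelle in which melanin is made, is built on fibrils of Pmel with the help of Mlana, and holds tyrosinase (Tyr), the rate-limiting enzyme of melanin synthesis, and its relatives Tyrp1 and Dct, which act on later intermediates. Slc45a2 is a transporter that bears on melanosome pH, Gpr143 is a receptor in the melanosome membrane, and Mlph (melanophilin) ties melanosomes to myosin Va for transport. The Mitf gene is also used by mast cells, macrophages and osteoclasts from other promoters, which gene-level counts do not separate.

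The sequences before the starts of the tyrosinase family genes are shown because these genes share the E-box CATGTG there, yet their reads differed. Control tumor 003 had many reads of Dct and Tyrp1, and control tumor 002 of Dct only, while Tyr had at most 1 read in each. Each run is the 250 bases before the start of the transcript that the annotation of GRCm39 marks as canonical. For Tyrp1 and Dct this start lies inside the full span of the gene. Runs are written 5′ to 3′ on the gene's strand, with the E-box in capitals. Tyr lies at chr7:87142721-87142970 (minus strand), Tyrp1 at chr4:80752192-80752441 (plus strand) and Dct at chr14:118289598-118289847 (minus strand).
Tyr: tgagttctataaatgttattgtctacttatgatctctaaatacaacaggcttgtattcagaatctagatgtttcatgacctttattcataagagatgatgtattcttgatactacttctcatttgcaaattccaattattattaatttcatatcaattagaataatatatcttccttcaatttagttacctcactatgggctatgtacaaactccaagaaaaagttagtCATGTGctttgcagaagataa
Tyrp1: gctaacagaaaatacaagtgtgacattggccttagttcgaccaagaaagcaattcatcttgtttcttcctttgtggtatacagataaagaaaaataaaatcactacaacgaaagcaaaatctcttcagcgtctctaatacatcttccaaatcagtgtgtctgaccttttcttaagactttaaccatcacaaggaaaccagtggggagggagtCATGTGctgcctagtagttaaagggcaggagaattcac
Dct: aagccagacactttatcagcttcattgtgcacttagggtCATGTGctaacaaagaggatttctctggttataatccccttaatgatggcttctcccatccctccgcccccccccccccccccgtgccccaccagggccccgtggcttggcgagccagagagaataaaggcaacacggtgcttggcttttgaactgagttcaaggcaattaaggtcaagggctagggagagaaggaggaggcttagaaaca
Counted from the start, the E-box began at position −21 in Tyr, −38 in Tyrp1 and −211 in Dct. In windows of 300 bases (250 before to 50 after the start, both strands searched), CATGTG was found in 5 of the 10 genes, namely Tyr, Tyrp1, Dct, Mlana and Gpr143, and in all 5 as TCATGTG, the core of the M-box. Of 21770 promoters of the same length, 12% held CATGTG and 3.33% held TCATGTG. The related E-box CACGTG was found in Mlph alone among the 10 genes and in 7.81% of all promoters. These are matches of letters and not shown to be bound.

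Library totals ranged from 16475735 to 36173502 counts. Levels are given as reads, or as counts per 1000000 (CPM) of the library size scaled by trimmed means (TMM). A gene with 0 reads could have had up to 3, which is 0.0926 to 0.166 CPM over the 26 libraries, for counting error alone. Control tumor 003 and, at a lower level, control tumor 002 stood apart from the other 16 tumors in these genes, so results that use them are given with and without them. Nothing in the labels says that the cultures or tumors of a group were grown separately, so p values measure the spread between these samples.

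**Figure D1:**
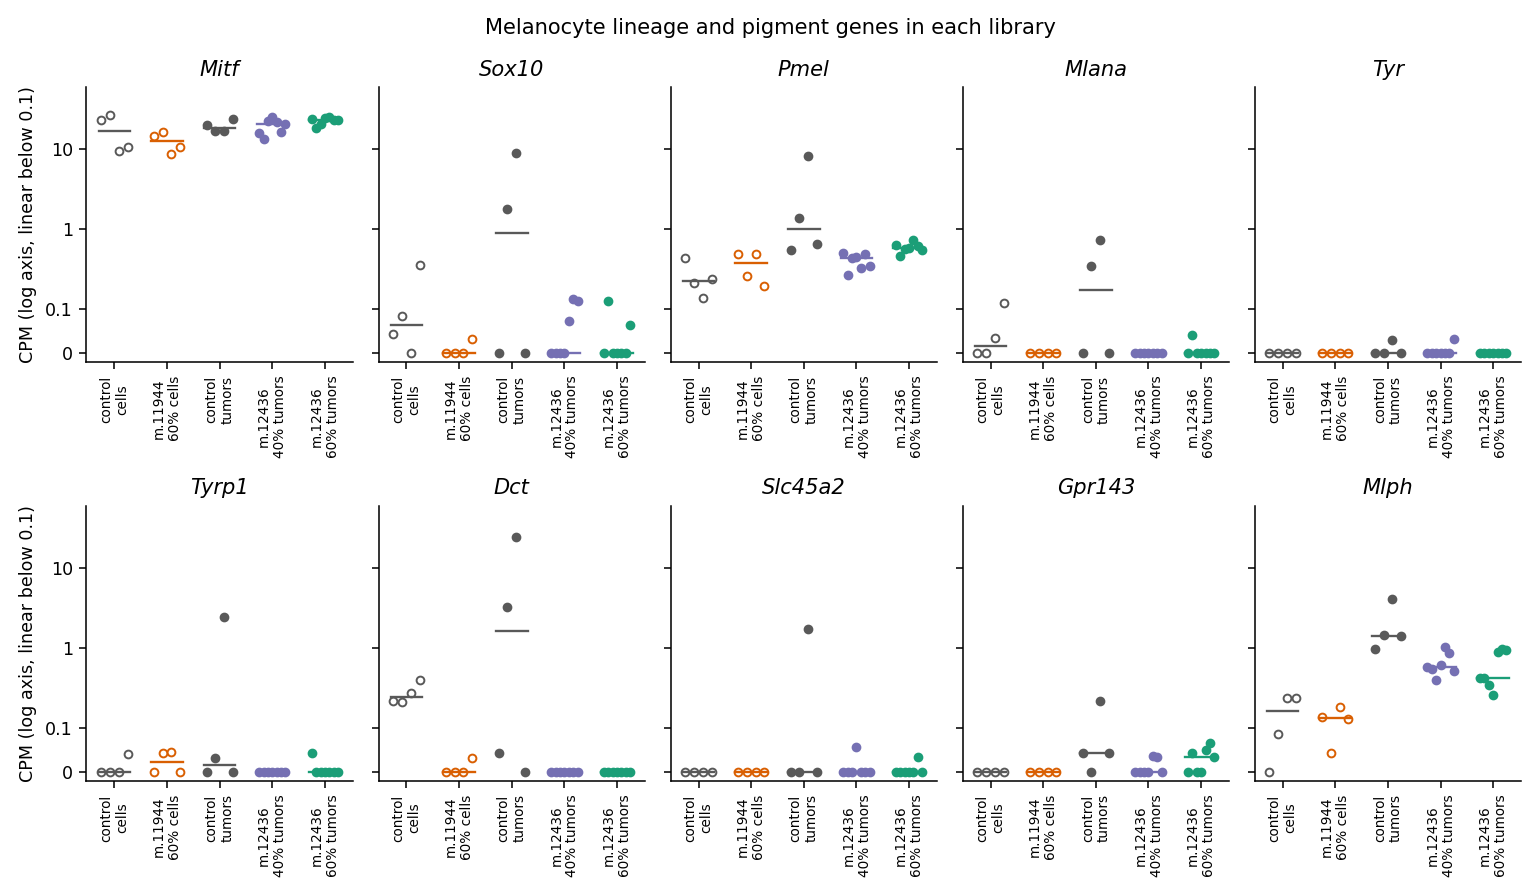
Each panel plots 1 gene, each point 1 library (open, cultured cells; filled, tumors) and each line the group median, in CPM on a log axis that is linear below 0.1. Mitf sat between 8.69 and 26.7 CPM in all 26 libraries, while the other genes were near 0 except in 2 of the 4 control tumors, where Dct reached 24.6 CPM.

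Mitf (chr6:97783950-97998323) was the only gene of the 10 with at least 194 reads in every library. In control cells its level was 23.5, 26.7, 9.52 and 10.6 CPM in cultures 1 to 4, and in m.11,944 60% cells it was 14.8, 16.4, 8.69 and 10.8 CPM. Cultures 1 and 2 were the higher ones in both groups, and the groups overlapped. In the control tumors Mitf was at 20.1, 17.1, 17.1 and 24.2 CPM, and in the edited tumors its lowest, median and highest levels were 13.7, 20.8 and 25.4 CPM at 40% and 18.8, 23.5 and 25.3 CPM at 60%. All 3 tumor groups overlapped, and the control tumors that stood apart in pigment genes were the lowest of the 4 controls for Mitf. An antisense gene, Gm66437, shares exon sequence with Mitf, and whether reads were counted by strand is not given in the sources used here.

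Mitf did not pass the test in any of the 5 comparisons, at an adjusted p under 0.1 in edgeR's quasi-likelihood test over all genes. The log2 fold change was −0.45 (SE 0.38, adjusted p = 1.0) in m.11,944 60% cells over control cells, where 1 of 12930 genes (0.00773%) was called higher and 4 (0.0309%) lower. Same-numbered cultures moved together, and with the culture number as a block the value for Mitf was −0.36 (adjusted p = 0.152), against 3.02% of all genes called higher and 4.09% lower. In tumors it was 0.23 (SE 0.14, adjusted p = 0.436) for 60% over control, −0.01 (SE 0.14, adjusted p = 0.998) for 40% over control and 0.24 (SE 0.12, adjusted p = 0.381) for 60% over 40%. Control tumors and control cells differed by 0.22 (SE 0.34, adjusted p = 0.598), so that the level of Mitf in tumor fragments was within the spread of that in cultures.

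The remaining 9 genes were sparse in cultured cells. Tyr, Slc45a2 and Gpr143 had 0 reads in all 8 cultures. Tyrp1 had 1 read in control culture 4, 1 each in m.11,944 60% cultures 2 and 3, and 0 in the rest. Mlph had 0, 2, 7 and 6 reads in control cells and 3, 1, 4 and 4 in m.11,944 60% cells. Pmel had 10, 5, 4 and 6 reads in control cells and 11, 6, 11 and 6 in m.11,944 60% cells. The few Mlph and Pmel reads thus overlapped between the groups. Pmel (chr10:128540064-128556107) shares exon sequence with Cdk2 and Dgka on the other strand, and Cdk2 alone had 771 to 1918 reads a control culture, so reads of Pmel at this level are uncertain. On the scale of CPM per kilobase of exon, the mean level in control cells was 1.73 for Mitf, 0.111 for Pmel, 0.0463 for Dct, 0.0362 for Sox10, 0.0325 for Mlana and 0.0252 for Mlph, and below 0.01 for the other four. Below Mitf, neighbors in this order rested on so few reads that their ranges over cultures overlapped.

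Dct, the enzyme that acts on dopachrome, was the pigment gene whose reads separated the cultures. Control cells held 5, 5, 8 and 10 reads and m.11,944 60% cells 0, 0, 0 and 1 read, so the groups did not overlap. Over the 4 cultures this was 28 reads against 1, a ratio in CPM of 27.2 with a counting interval of 4.5 to 1110 (exact, 95%). An exact permutation test on CPM, two-sided, gave p = 0.0286, the smallest that 4 against 4 cultures allow, among 46 such tests run over the 10 genes and 5 comparisons and without adjustment. This test exchanged cultures freely and did not use the pairing of same-numbered cultures. Within pairs fewer exchanges exist, so a paired test could not have given a p this small. Dct was below the filter on low counts. With no filter the log2 fold change was −4.21 (adjusted p = 0.284 over all genes, edgeR), so the difference did not pass the threshold across genes.

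Sox10, which in melanocytes acts upstream of Mitf, had 1, 2, 0 and 9 reads in control cells and 0, 0, 0 and 1 in m.11,944 60% cells. Culture 4 of the control cells held 9 of the 12 reads, and the groups overlapped (exact permutation p = 0.143, n = 4 and 4). Mlana had 0, 0, 1 and 3 reads in control cells and 0 in every m.11,944 60% culture (exact permutation p = 0.429, n = 4 and 4). Control culture 4 held the most Dct, Sox10 and Mlana reads of the 8 cultures. Over the 4 cultures Sox10 had 12 reads against 1, a ratio in CPM of 11.7 (counting interval 1.73 to 499). Mlana had 4 reads against 0, which is 1.3-fold against a limit of 3 reads over the group. That value takes the 4 reads as exact, so it is not a lower bound. The interval for Sox10 covers counting error only. Over cultures neither gene passed the permutation test, which did not use the pairing.

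**Figure D2:**
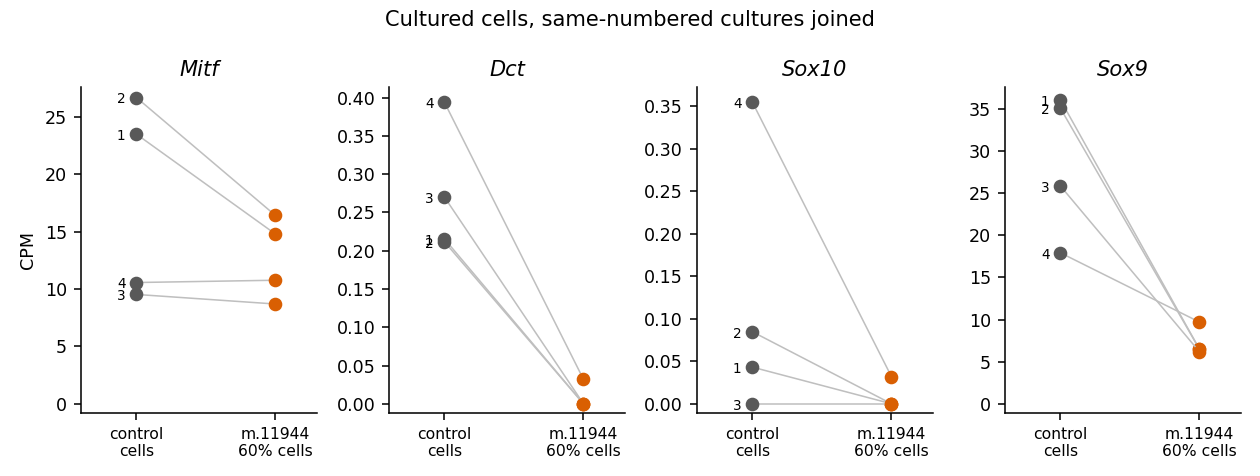
CPM of Mitf, Dct, Sox10 and Sox9 in each culture of control and m.11,944 60% cells, with same-numbered cultures joined by a line and the culture number beside the control. Dct was at 0.212 to 0.394 CPM in the control cultures and at 0 in 3 of the 4 edited ones, and Sox9 was at 17.9 to 36.1 CPM against 6.18 to 9.71 CPM.

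In tumors the pigment genes were near absent in all m.12,436 tumors and in control tumors 001 and 004, and present in control tumors 003 and 002. Dct (chr14:118250202-118289656) had 1, 102, 798 and 0 reads in control tumors 001 to 004 and 0 reads in all 14 m.12,436 tumors. Sox10 (chr15:79039108-79049469) had 0, 57, 291 and 0 reads in the control tumors and 0 to 4 in the 14 others. Tyrp1 (chr4:80752360-80769956) had 0, 1, 78 and 0 reads in the control tumors, and a single read in 60% tumor 1 was the only other. These genes were thus high in the same pair of fragments, with Tyrp1 in tumor 003 alone.

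Slc45a2 (chr15:11000803-11029319), the transporter, had 55 reads in control tumor 003 and 0 in the other 3 control tumors, with 1 read in 60% tumor 6 and 1 in 40% tumor 4. Mlana (chr19:29674900-29686034) had 0, 11, 24 and 0 reads in the control tumors and 1 read in 60% tumor 2 as the only other. Gpr143 (chrX:151564842-151591652) had 1, 0, 7 and 1 reads in the control tumors and 0 to 2 in the others. Control tumor 003 was the highest of the 18 tumors in all of these. Tyr (chr7:87073979-87142720) differed: it had 1 read in control tumor 003, 1 in 40% tumor 7 and 0 in the other 24 libraries, so tyrosinase itself was not seen above the limit of 3 reads in any library.

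Pmel had 13, 44, 267 and 15 reads in control tumors 001 to 004. Its lowest, median and highest counts were 11, 15 and 19 in the 60% tumors and 6, 11 and 15 in the 40% tumors. Mlph (chr1:90842787-90879012) had 23, 46, 131 and 32 reads in the control tumors, 7, 10 and 30 in the 60% tumors and 11, 15 and 28 in the 40% tumors. Control tumors 001 and 004 were inside the range of the edited tumors for Pmel reads, and for Mlph 004 was above it by 2 reads.

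**Figure D3:**
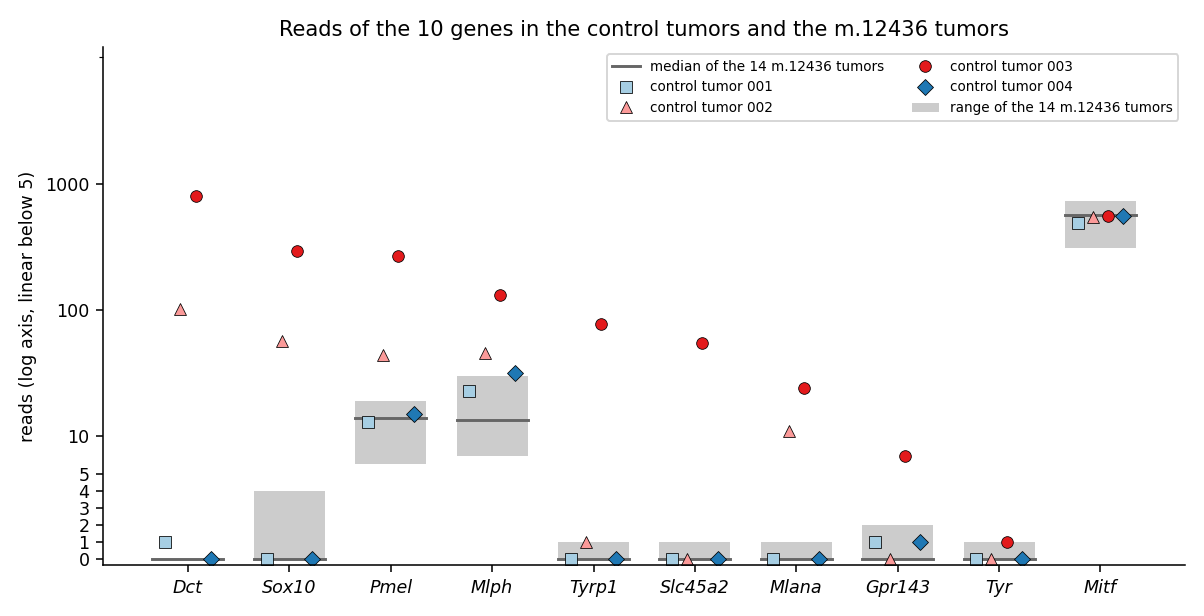
Reads of each gene in the 4 control tumors (colored symbols) beside the range (gray) and median (line) of the 14 m.12,436 tumors, on a log axis that is linear below 5. Control tumor 003 was above the gray range for 8 of the 10 genes and 002 for 5, while all 4 control tumors were inside it for Mitf.

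The size of the gap was given as a ratio of CPM with its counting interval. The 14 m.12,436 tumors were pooled, as their summed reads over their summed library sizes. For Dct, control tumor 003 was at least 3020-fold higher than this pooled level, and control tumor 002 at least 392-fold, both against a limit of 3 reads over the group. Sox10 in control tumor 003 was 220-fold higher (95% interval 131 to 398), Pmel 16.6-fold (13.7 to 20.2) and Mlph 6.4-fold (5.13 to 7.97). The ratio for Tyrp1 was 885 (154 to 35400), for Slc45a2 312 (82.3 to 2640) and for Mlana 272 (44.4 to 11200), each against 1 or 2 reads in the 14 tumors. Mitf was at a ratio of 0.806 (0.738 to 0.879) in the same library. The intervals cover counting error in a single fragment and not the spread between tumors.

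The make-up of these reads differed between the fragments. Control tumor 003 held 1652 reads of the 9 genes other than Mitf, 51 CPM, and control tumor 002 held 261, 8.19 CPM, against 0.801 to 2.09 CPM in the other 16 tumors. Dct made up 48.3% of them in tumor 003 (95% exact binomial interval 45.9 to 50.7%) and 39.1% in tumor 002 (33.1 to 45.3%). Tyrp1 made up 4.72% (3.75 to 5.86%) and 0.383% (0.0097 to 2.12%), and Slc45a2 3.33% (2.52 to 4.31%) and 0 of 261 reads (up to 1.4%). Mlph took 7.93% (6.67 to 9.34%) in tumor 003 and 17.6% (13.2 to 22.8%) in tumor 002, and Sox10 and Pmel had intervals that overlapped between them. The later enzyme Tyrp1 and the transporter Slc45a2 were therefore a larger share of the pigment reads in tumor 003 than in tumor 002. These intervals cover counting error in single fragments and not the spread between tumors. Control tumors 001 and 004 also held 23 and 32 Mlph reads and 13 and 15 Pmel reads. The shares were not corrected for such reads, which weigh more in tumor 002 with its fewer reads. Per kilobase of exon, the order in tumor 003 was Dct (4.18 CPM), Pmel (3.6), Sox10 (2.7), Mitf (1.68), Tyrp1 (0.851), Mlph (0.732), Mlana (0.633), Slc45a2 (0.57), Gpr143 (0.104) and Tyr (0.00434).

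A search of the whole table was added after these values had been seen. Of 56748 genes, 8 had at least 20 reads in control tumor 003 and a CPM at least 10 times the highest of the 16 tumors other than 002 and 003, each floored at 3 reads. Of these 8, 5 were pigment genes from the list: Dct, Sox10, Pmel, Tyrp1 and Slc45a2. The other 3 were Ptgds (346 reads in 003, 71 in 002, at most 4 elsewhere), which encodes prostaglandin D synthase, Col4a5 (98, 16 and 6), a basement membrane collagen chain, and Gjc3 (66, 22 and 3), a connexin of glial cells. By the same rule control tumor 002 had 3 genes: Dct, Ptgds and Sox10. At 5 times, 15 genes passed in tumor 003, with no further gene from the list, so pigment genes were 5 of 8 genes at the higher margin and 5 of 15 at the lower. When each tumor was set against all 17 others at 10 times, tumor 003 had 2 such genes, 40% tumor 2 had 6, 40% tumor 1 had 1 and the other 15 tumors had none. Since the rule was chosen with the values in view, it has no test.

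Reads of other cell types in these fragments are given for whole marker lists. For Schwann cells, which share the Sox10 lineage, the summed CPM was 53.9 in control tumor 003 and 45.8 in 002, within 32 to 55.2 CPM over the edited tumors, and the list was at 35.7 to 56.5 CPM in cultures, so it did not separate tumors from cultured cells. The 7 keratinocyte markers summed to 3.06 CPM in 003 and 2.73 in 002, both above the 2.01 to 2.67 CPM of the edited tumors and within the 1.97 to 3.4 CPM of the cultures. Krt10, the marker with the most reads in 003, had 93 reads there and 68 in 002, against 38 to 75 in the other 16 tumors, while Krt14 and Dsg3 were at 0 reads in both fragments and Krt5 at 0 in 003 and 2 in 002. Fibroblast markers summed to 3660 CPM in 003 and 2350 in 002, against 2080 to 3070 CPM over the edited tumors, and endothelial markers to 201 and 133 CPM, against 104 to 194. Their part in the pigment gene reads was not tested.

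In m.12,436 60% tumors against control tumors, 3 of the 10 genes had enough reads to be tested and 2 were called, both lower: Pmel and Mlph. Over all genes 0.962% were called higher and 1.34% lower, of 16213. For Pmel the log2 fold change was −2.21 (SE 0.51, adjusted p = 0.0456, edgeR) and for Mlph −1.69 (SE 0.39, adjusted p = 0.0404). Both calls rested on control tumor 003. Without it Pmel was at −0.56 (adjusted p = 0.559) and Mlph at −1.05 (adjusted p = 0.362), and without 002 and 003 Pmel was at −0.02 (adjusted p = 0.989) and Mlph at −0.95 (adjusted p = 0.536). The number of all genes called also moved with this library, from 374 to 66. Summed leukocyte markers had a median of 403 CPM in control tumors and 583 CPM in 60% tumors (ranges 362 to 538 and 427 to 750), and with their score as a covariate Pmel was at −1.27 (adjusted p = 0.587) and Mlph at −1.21 (adjusted p = 0.438), both uncalled. Pmel was not called by limma-voom either (−1.4, adjusted p = 0.199). By group mean and SD, Pmel was at 2.7 ± 3.71 CPM in control tumors (n = 4) and 0.591 ± 0.0819 CPM in 60% tumors (n = 7), so the spread was in the controls.

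**Figure D4:**
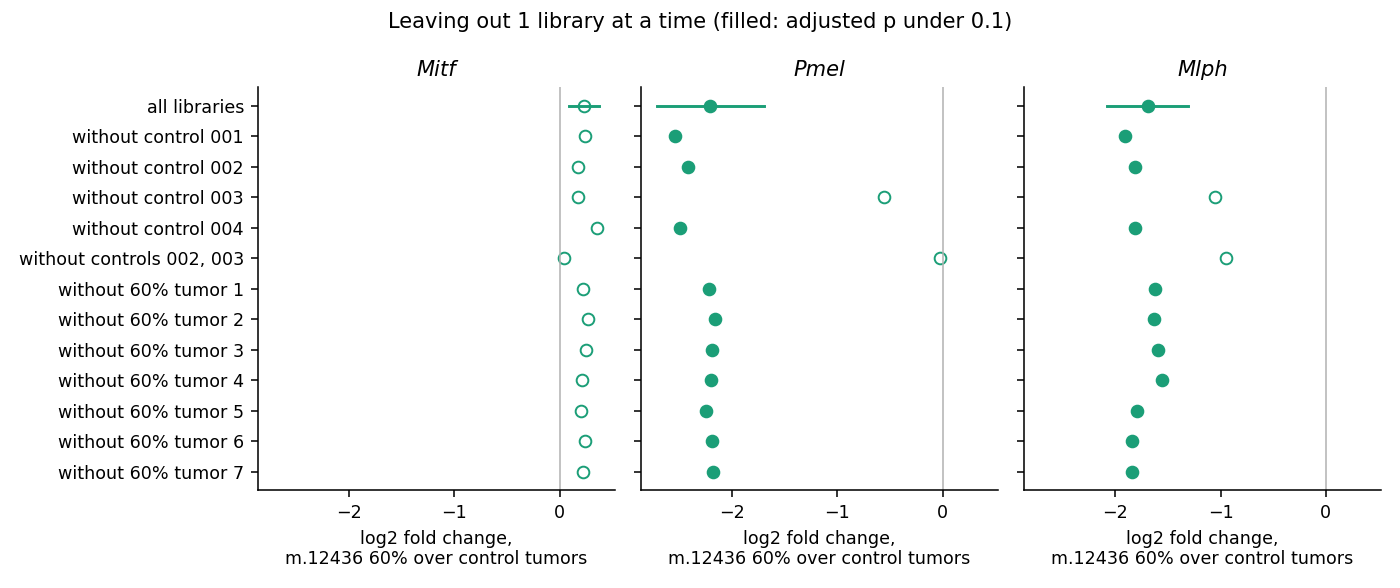
Log2 fold change of Mitf, Pmel and Mlph in m.12,436 60% over control tumors with all libraries (bar, ± SE) and with the named libraries left out, filled where the adjusted p was under 0.1. Pmel moved from −2.21 to −0.56 and Mlph from −1.69 to −1.05 without control tumor 003, and the other single removals left both calls in place.

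For Mlph the other control tumors were on the same side as tumor 003. Its level was 0.956, 1.44, 4.04 and 1.39 CPM in the control tumors against 0.254 to 0.974 in the 60% tumors and 0.395 to 1.02 in the 40% tumors. The lowest control, tumor 001, was passed by 1 tumor at 60% and 1 at 40%, and the other controls were above all 14. An exact permutation test on CPM, two-sided, gave p = 0.0121 for either edited group against control (n = 7 and 4, smallest possible p 0.00606).

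In m.12,436 40% tumors against control tumors none of the 3 tested genes was called, nor was any gene of the table (0% higher, 0% lower). At an unadjusted p under 0.05 there were 825 genes in edgeR, and DESeq2 called 5 genes. Pmel had a log2 fold change of −2.75 (SE 0.53, unadjusted p = 5.48e-05, adjusted p = 0.774) and Mlph of −1.61 (SE 0.38, adjusted p = 0.924). Without control tumor 003 these were −1.1 and −0.96. Pmel was called without control tumor 001 (−3.08, adjusted p = 0.0662), without control tumor 004 (−3.05, adjusted p = 0.0592) and by DESeq2 (−2.74, adjusted p = 0.00712). The Pmel levels did not overlap, with 0.54 CPM in the lowest control tumor and 0.503 CPM in the highest 40% tumor (exact permutation p = 0.00606, n = 7 and 4, the smallest that this design allows). The 40% and 60% comparisons share the control tumors.

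Between the edited groups, 60% against 40%, none of the 3 tested genes was called, while 0.814% of all genes were called higher and 0.993% lower. Pmel was at 0.461 to 0.73 CPM in the 60% tumors and 0.267 to 0.503 CPM in the 40% tumors. The ranges overlapped by a narrow margin. Its log2 fold change was 0.55 (SE 0.52, adjusted p = 0.686), and an exact permutation test on CPM, two-sided, gave p = 0.00175 (n = 7 and 7, smallest possible p 0.000583, unadjusted). Since Pmel had 6 to 19 reads in these tumors and shares exon sequence with Cdk2 and Dgka, the level itself is uncertain. Mlph was at −0.09 (SE 0.37, adjusted p = 0.948).

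Of the 7 genes below the filter, none had groups of tumors that did not overlap. For Dct the exact permutation p was 0.0485 for 60% and for 40% against control tumors, with 1 control at 0 reads like all edited tumors. For Sox10 and for Mlana it was 0.218 in each of these comparisons. With no filter on low counts, edgeR called 3 of the 10 genes lower in 60% tumors: Sox10 (−6.43, adjusted p = 0.0515) and Mlana (−4.85, adjusted p = 0.0842), with all their control reads in tumors 002 and 003, and Mlph (−1.7, adjusted p = 0.0398). Over all 34619 genes of that fit, 93 were called higher and 169 lower. Pmel was then not called (−2.21, adjusted p = 0.107).

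Setting control tumors beside control cells, where 35.3% of genes were called higher and 29.9% lower of 15047, Pmel and Mlph were called higher among the 3 tested genes. Control cells held 4 to 10 reads of Pmel and 0 to 7 of Mlph. Both genes thus passed the filter only through the tumors, the group where they were higher. Pmel differed by a log2 fold change of 3.48 (SE 0.96, adjusted p = 0.0115) and Mlph by 3.78 (SE 0.70, adjusted p = 0.00132). Neither gene overlapped between the groups, and how many of all genes did not overlap there was not counted. With no filter Gpr143, at 9 reads over the control tumors and 0 in cultures, was called higher as well (adjusted p = 0.0581). In that fit 7808 of 30268 genes were called higher. Without control tumors 002 and 003 the values were 1.27 for Pmel (adjusted p = 0.082) and 3.02 for Mlph (adjusted p = 0.0147). Both genes thus kept their calls with only the fragments with few pigment reads, in a fit where 4454 of 15582 genes were called higher. Fragments hold leukocytes (362 to 538 CPM summed over 5 markers, against 0.118 to 0.439 CPM in control cells), mast cells, fibroblasts and vessels, and their part in the Pmel and Mlph reads was not tested.

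The wider pigment-cell machinery was followed in 59 further genes in 6 lists, of which 58 were found. In cultured cells 46 were tested and none called. With the culture number as a block 3 of the 46 were called, Sox9 and Prkcb lower and Mreg higher, against 4.09% of all genes lower and 3.02% higher, so the count of the lists was near that of all genes. Sox9, a relative of Sox10 that also acts in the neural crest, was at 36.1, 35.1, 25.9 and 17.9 CPM in control cells and 6.5, 6.49, 6.18 and 9.71 CPM in m.11,944 60% cells. The groups did not overlap, and all 4 pairs fell. The log2 fold change was −1.97 (SE 0.26, adjusted p = 0.108) and, with the block, −1.93 (SE 0.24, adjusted p = 0.0119), and DESeq2 called it without the block (−1.97, adjusted p = 6.16e-09). Prkcb, a kinase linked to tyrosinase activation, was at −0.87 (SE 0.23, adjusted p = 0.0774) with the block, and Mreg, a melanosome transport protein, at 0.65 (SE 0.18, adjusted p = 0.0848). In tumors Sox9 was not called, with −0.34 (adjusted p = 0.52) for 60% over control.

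Among signals and receptors, Kit, the receptor that melanoblasts need for survival, and Ednrb, the endothelin receptor of the same lineage, had 0 reads in all 8 cultures. In tumors Kit had 166 to 483 reads and Ednrb 96 to 523, all 18 tumors above all cultures. Kit was at least 404-fold and Ednrb at least 352-fold higher in control tumors than in control cells, against a limit of 3 reads over the group. Mast cells also carry Kit, and the 7 mast cell markers summed to 16.9 to 135 CPM in control tumors, 7.1 to 81.4 in 60% tumors and 37.9 to 120 in 40% tumors, against at most 0.0961 CPM in cultures. Ednrb was highest in control tumor 003 with 523 reads. Neither receptor was called between tumor groups (Kit 0.01 and Ednrb −0.44 for 60% over control, adjusted p = 0.98 and 0.538). Mc1r, the melanocortin receptor that turns on pigment synthesis, was below the filter, with 4 reads in control tumor 002, 25 in 003, 0 to 2 in the other 16 tumors and 0 to 5 in cultures. Its reads thus stood apart in the same fragment as Dct and Sox10.

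Kitl, the ligand of Kit, was lower in 60% than in 40% tumors. Its lowest, median and highest levels were 63.6, 88.2 and 106 CPM at 60% and 95.3, 123 and 150 CPM at 40%, with 104, 114, 118 and 130 CPM in the control tumors. The log2 fold change was −0.48 (SE 0.10, adjusted p = 0.0391) between the edited groups and −0.38 (SE 0.12, adjusted p = 0.134) for 60% over control. Rab32, a small GTPase that brings cargo to melanosomes, was higher in 60% than in 40% tumors (0.32, SE 0.07, adjusted p = 0.0499), at 16.4 to 21.7 CPM against 13.6 to 18.3. These were the 2 calls among 52 tested genes there, where 0.814% of all genes were called higher and 0.993% lower. Against control tumors the 60% tumors gave 1 call of 52, Mfsd12, a cysteine transporter of melanosomes and lysosomes, at 53 to 66.9 CPM against 41.1 to 55.7 CPM (0.38, SE 0.09, adjusted p = 0.0606), where 0.962% of all genes were called higher and 1.34% lower, and the 40% tumors gave none. In both comparisons of the 60% tumors the count of the lists was thus near that of all genes. Mfsd12 was not called without control tumor 003 (0.32, adjusted p = 0.305) or without 60% tumor 1, 3 or 4 (adjusted p = 0.102, 0.104 and 0.112). Rab32 was not called without 60% tumor 2, 4 or 7 or 40% tumor 1 (adjusted p = 0.115, 0.106, 0.109 and 0.111), while Kitl kept its call without any 1 of the 14 edited tumors. With the leukocyte score as a covariate Kitl (−0.39, adjusted p = 0.256), Rab32 (0.24, adjusted p = 0.321) and Mfsd12 (0.35, adjusted p = 0.342) were uncalled.

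In control tumors over control cells, 16 of the 52 tested genes were called higher and 14 lower, against 35.3% and 29.9% of all genes. Of the 4 signals and receptors tested, Kit and Ednrb were higher and Kitl was lower, at 104 to 130 CPM in control tumors and 392 to 450 CPM in control cells (−1.79, SE 0.11, adjusted p = 1.76e-06). Among transcription factors 6 of 10 were called higher and 2 lower, with Tfec at 40 to 66 reads a control tumor and 0 in all cultures, Irf4 at 14 to 60 reads a control tumor and 2 over the control cells, and log2 fold changes of 2.17 for Tfeb and −0.45 for Creb1. Among other melanosome proteins 4 of 8 were higher and 3 lower, with log2 fold changes of 2.99 for Mfsd12, 5.05 for Bace2, a protease that cuts Pmel, and 1.35 for Tpcn2, an ion channel of melanosomes and lysosomes. Slc7a11, the cystine carrier that feeds pheomelanin synthesis, fell by 4.35 on this scale. Of the 21 genes of lysosome-related organelle biogenesis 3 were higher and 7 lower, and the paired GTPases Rab32 (2.20) and Rab38 (−3.31) went opposite ways, while Bloc1s6 (−1.22) and Bloc1s2 (−0.90), subunits of a complex that sorts melanosome cargo, were lower. Of the 4 transport genes Mreg was lower (−1.05), and of 5 other Mitf targets Prkcb was higher (2.15). Tfec, Irf4 and Tfeb are also used by macrophages, whose 7 markers summed to 1110 to 1380 CPM in control tumors and 2.09 to 3.75 CPM in control cells, and the part of host cells in these values was not tested.

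**Figure D5:**
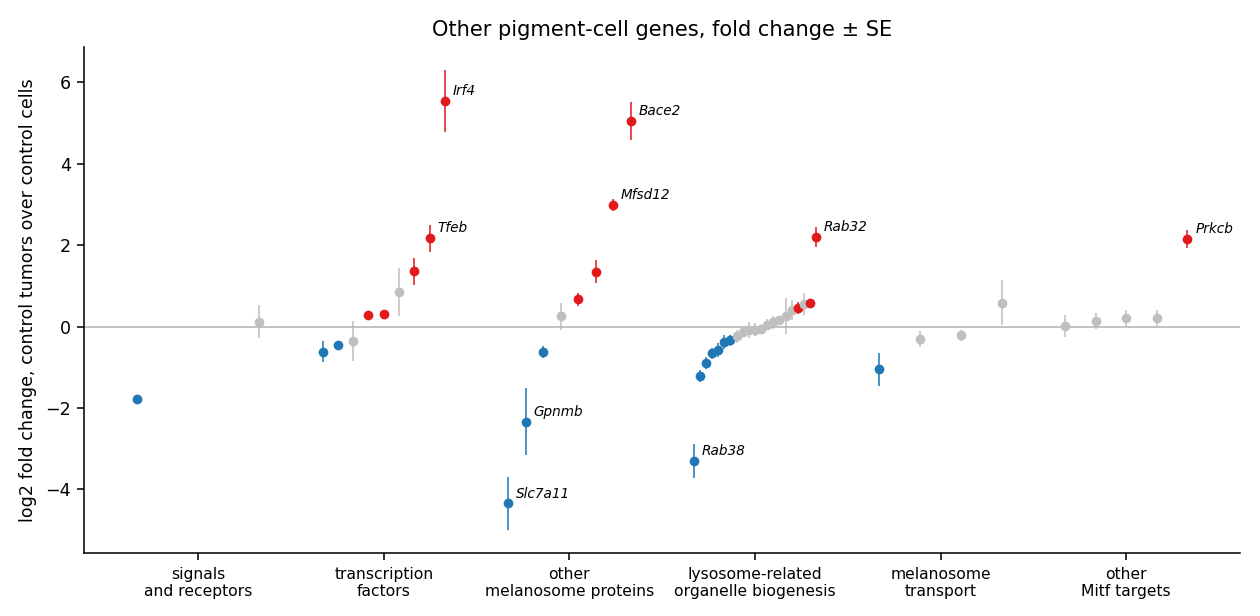
Log2 fold change (± SE) of the tested pigment-cell genes in control tumors over control cells, by list (red, called higher; blue, called lower; gray, not called). Kit, Ednrb and Tfec, with 0 reads in the cultures, are left out, and the paired GTPases Rab32 (2.20) and Rab38 (−3.31) lie at opposite ends of their list.

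Over the 18 tumors, after group means were taken off, the genes most like Mitf were Tbc1d8b (Pearson r = 0.882), Rmnd5a (0.882) and Styx (0.879). For Pmel they included Pak4 (0.742) and Shisa4 (0.715), and for Mlph they were Wdpcp (0.714), Chd8 (0.703) and Pde5a (0.703). Without control tumor 003 the value for Pmel and Pak4 was 0.421 and for Shisa4 0.451, while those of Mitf were between 0.877 and 0.884. The likeness of Pmel to other genes thus leaned on the fragment with many pigment reads, and that of Mitf did not. The tumors share a sequencing provider and these values carry no test.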

How the data were processed

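RNA-seq of 26 libraries was used: 8 of cultured B78-D14 cells and 18 of tumor fragments. Reads had been aligned by the authors with STAR (genome GRCm39) and assigned to Ensembl genes by featureCounts, and raw counts of 56748 genes were deposited. Of the 47 columns of samples, 26 were matched to a sample by name and 21 were not used, so tumors with m.11,944, cultures with m.12,436 and control tumors other than 001 to 004 were not analysed here. Library totals were 16475735 to 36173502. Intervals and limits of 3 reads cover counting error only, without molecular identifiers.

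The tests on counts used edgeR 4.0.16 under R 4.3.3 (TMM, filterByExpr, robust quasi-likelihood test, Benjamini–Hochberg over all genes tested, two-sided, threshold an adjusted p of 0.1, as in the study's methods). The 18 tumors were fitted together, and the cultures, and the control tumors with the control cells, were fitted apart. Because filterByExpr keeps genes with enough reads in a group's worth of libraries, Pmel and Mlph could enter the tumor fit and 7 of the 10 genes could not. Single genes were also compared by exact permutation of samples (scipy 1.17.1), without the pairing of cultures. How many of all genes had groups that did not overlap was not counted. The scripts were tested on simulated counts.

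Same-numbered cultures of the 2 cell groups deviated together across genes (r = 0.718 to 0.832 for the 4 pairs), so the number of the labels was taken to pair them and the blocked fit is given where it changed a call or the counts.

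The 10 genes, the lists of other genes and markers and the tests were chosen with earlier results of these data known. All 10 genes are named in each comparison. Of the other lists, genes past the threshold are named, at most 4 with the smallest p per list and comparison, and Mc1r, Kit and Ednrb always. Genes most like a tested gene are the 3 with the highest Pearson r over the 18 tumors after group means, of which 1 for Pmel is not reported here. Promoter windows and gene positions are those of GENCODE on GRCm39, which held 56017 of the genes. Asip was not matched. Alternatives were limma-voom (limma 3.58.1), DESeq2 1.42.0, DESeq2 size factors, no filter, at least 10 counts in every library, a threshold of 0.05, the number as a block, only the groups compared, a leukocyte score as covariate, all libraries in 1 fit, each library left out, and CPM without TMM.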

Additional observations from a re-analysis of the deposited data

Results flagged for a closer look

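In 14 of the 38 sets of a gene and a group that had any reads, 1 library was farther from its group than Dixon's critical value allows. The rule's chance rate of 5%, or 1.9 sets, holds for normally distributed values and not for counts near 0. A group at 0 except for 1 library is always flagged, so the 14 sets do not show an excess. Control tumor 003 was that library for 6 genes: Dct at 24.6 CPM (798 reads), Pmel at 8.24 CPM (267 reads), Mlph at 4.04 CPM (131 reads), Tyrp1 at 2.41 CPM (78 reads), Slc45a2 at 1.7 CPM (55 reads) and Tyr at 0.0309 CPM (1 read). Sox10 and Mlana were not flagged in that group because control tumor 002 lay between 003 and the rest.

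The other sets, like that of Tyr in tumor 003, rest on 1 read in a group otherwise at 0, which is under the limit of 3 reads. These were Sox10 in m.11,944 60% culture 4 (0.032 CPM), Dct in the same culture (0.032 CPM), Tyrp1 in control culture 4 (0.0394 CPM), Mlana in m.12,436 60% tumor 2 (0.0419 CPM), Tyrp1 in 60% tumor 1 (0.0418 CPM), Slc45a2 in 60% tumor 6 (0.0325 CPM), Tyr in 40% tumor 7 (0.0318 CPM) and Slc45a2 in 40% tumor 4 (0.0553 CPM).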

How the results depend on the processing

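The number of listed genes called in m.12,436 60% against control tumors was 2 and fell to 1 with limma-voom (Mlph), and to 0 with at least 10 counts in every library (only Mitf left to test), with a leukocyte marker score as a covariate and without control tumors 002 and 003, an alternative chosen after seeing the data. With no filter it was 3 (Sox10, Mlana and Mlph), with Pmel not called, where 262 of all 34619 genes were called. Leaving out 1 library at a time gave 0 to 2, with 0 without control tumor 003 alone. For 40% against control tumors the count rose from 0 to 1 with DESeq2 (Pmel, adjusted p = 0.00712) and was 0 to 1 over single removals, with Pmel called without control tumor 001 or 004. In control tumors against control cells it was 2 throughout the single removals 3 with no filter (Gpr143 added) and 0 with at least 10 counts in every library. It stayed at 0 in cultured cells and between the edited tumors under all alternatives run.

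Tumor numbers did not pair the tumors (r = −0.358 to 0.167 for same-numbered tumors). With the replicate block, 1 gene was called for 60% against control tumors (Mlph, log2 fold change −2.27). The block changed no other call among the 10 genes, including the paired cultures.

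Values near 0 changed sign. Mitf in 40% over control tumors was −0.01 and became 0.0062 and 0.12 without control tumor 001 or 004 and 0.04, 0.056 and 0.034 without 40% tumor 1, 2 or 6, within a range of −0.079 to 0.12 over single removals. Mlph in 60% over 40% tumors became 0.27 with the leukocyte score and 0.0094, 0.0485 and 0.0615 without 60% tumor 3 or 4 or 40% tumor 5, in a range of −0.25 to 0.0615. Mitf in control tumors over control cells became −0.00055 without control culture 3, and the range was up to 0.48. Mean CPM without TMM scaling moved by less than 1 SD in all 50 gene and group sets. The cause of these changes was not tested. Over all genes, the count called in the cultures was 5, against 84 with DESeq2, 919 with the replicate block, and 0 with at least 10 counts in every library or without any 1 culture. For 60% against control tumors it was 374, against 1056 with DESeq2, 943 with only these groups fitted, 150 at a threshold of 0.05, 26 with the leukocyte score and 20 without control tumors 002 and 003, and 66 to 724 over single removals. For 60% against 40% tumors it was 293, against 744 with DESeq2, 178 with no filter, 113 at the threshold of 0.05 and 62 with the leukocyte score, and 108 to 452 over single removals. For 40% against control tumors it was 0, against 5 with DESeq2 and 0 to 4 over single removals. The 7 genes that were not tested in the tumors had at most 4 reads a tumor outside control tumors 002 and 003. Whether deeper sequencing would show more was not tested.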
